A study of Mus musculus with 36 samples.

Results

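The mRNA of 42 genes of the Wnt pathway was followed through the change of mouse embryonic stem cells (ESCs) into epiblast-like cells (EpiLCs), in wild-type cells and in cells lacking Polycomb proteins. The 42 are a list of 19 Wnt ligands, 10 Frizzled receptors, 2 co-receptors, 4 TCF/LEF transcription factors, 2 signal transducers and 5 target or feedback genes. They were taken by gene name from the 55401 genes counted. Each name matched a single Ensembl identifier.

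Wnt proteins are secreted ligands that bind a Frizzled receptor together with the co-receptor LRP5 or LRP6. Binding holds back a complex built on AXIN that otherwise marks β-catenin, encoded by Ctnnb1, for breakdown by way of the kinase GSK3. The β-catenin that accumulates binds TCF/LEF factors on DNA and switches on targets such as Axin2 and Sp5, several of which feed back on the pathway. In mouse ESCs, an inhibitor of GSK3 is a common part of culture medium because it favours naive pluripotency, in part by relieving repression by TCF7L1. Polycomb repressive complex 2 (PRC2) methylates lysine 27 of histone H3 and acts at many silent developmental genes, most of them with CpG-rich promoters.

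The study asked how the 2 forms of PRC2 act as cells leave the naive state. PRC2.1 holds a Polycomb-like protein (PHF1, MTF2 or PHF19), and PRC2.2 holds JARID2. RNA was sequenced from 36 libraries in 12 groups of 3. J2KO cells lack JARID2 and were compared with their own wild type, J2WT. TKO cells lack PHF1, MTF2 and PHF19, and QKO cells lack JARID2 as well. Both were compared with PclWT, so those comparisons share control libraries. Each of these 5 genotypes was sequenced as ESCs and as EpiLCs. A Pcgf2/4 KO, which lacks PCGF2 and PCGF4 of the other main Polycomb complex, canonical PRC1, was sequenced with a WT of its own as EpiLCs only. Per the labels the cells are C57BL/6, and each genotype is represented here by cells of a single line as far as the labels tell. ESCs were grown in serum with LIF, the GSK3 inhibitor CHIR99021 at 3 µM and the MEK inhibitor PD0325901 at 1 µM. EpiLCs were held for 2 days on fibronectin with activin A at 20 ng/mL, bFGF at 12 ng/mL and serum replacement, and the labels list no CHIR99021 for that medium. Stage therefore cannot be told apart from the GSK3 inhibitor, or from any other difference between the media, in any comparison of EpiLCs with ESCs. Those differences include the MEK inhibitor, listed for ESCs only, and activin A and bFGF, listed for EpiLCs only. The labels do not tell separate cultures from repeated libraries, so the p-values reflect spread that may be technical.

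Promoters of members whose mRNA differed most, or in opposite directions, between stages are shown first. The sequences are from RefSeq (GRCm38.p6), 5′ to 3′ on the gene's strand, and each holds the 250 bases before an annotated start. A RefSeq window was given for 31 of the 42 members, 41 windows in all. For 32 of the 41, the bases after the start were found in a GENCODE transcript of the gene. The Fzd7 and Lef1 windows printed below end upstream of the GENCODE gene starts, at 59482424 and 131110471. For Sp5, a transcription factor gene that is a direct Wnt target, capitals mark letters of the TCF/LEF motif.
Sp5 (chr2:70474673-70474922, plus strand): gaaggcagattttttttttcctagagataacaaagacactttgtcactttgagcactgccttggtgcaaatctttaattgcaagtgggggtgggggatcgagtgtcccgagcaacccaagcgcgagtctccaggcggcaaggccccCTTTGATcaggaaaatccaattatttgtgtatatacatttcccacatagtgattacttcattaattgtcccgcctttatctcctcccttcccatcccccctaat
The letters searched were CTTTGAT and CTTTGAA on both strands, and the match in Sp5 begins at position -104 from the start. They occurred in 4 of the 41 windows (9.76%), those of Sp5, Dkk1, Wnt11 and the most downstream of 3 starts of Wnt5b, and in 7.48% of all 32851 RefSeq windows. The match is a description of letters, not a binding site. For Fzd5, Fzd7 and Lef1, capitals mark CpG dinucleotides.
Fzd5 (chr1:64737751-64738000, minus strand): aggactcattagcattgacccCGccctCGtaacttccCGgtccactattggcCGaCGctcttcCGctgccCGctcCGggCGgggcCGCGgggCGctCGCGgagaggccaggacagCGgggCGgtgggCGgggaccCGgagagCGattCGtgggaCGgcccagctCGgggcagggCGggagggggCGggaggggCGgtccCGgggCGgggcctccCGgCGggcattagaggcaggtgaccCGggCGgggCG
Fzd7 (chr1:59481897-59482146, plus strand): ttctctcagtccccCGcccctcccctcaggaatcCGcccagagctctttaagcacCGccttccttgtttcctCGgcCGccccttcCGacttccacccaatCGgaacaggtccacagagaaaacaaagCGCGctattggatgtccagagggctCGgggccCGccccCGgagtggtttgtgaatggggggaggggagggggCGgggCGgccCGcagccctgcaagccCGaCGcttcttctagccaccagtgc
Lef1 (chr3:131110047-131110296, plus strand): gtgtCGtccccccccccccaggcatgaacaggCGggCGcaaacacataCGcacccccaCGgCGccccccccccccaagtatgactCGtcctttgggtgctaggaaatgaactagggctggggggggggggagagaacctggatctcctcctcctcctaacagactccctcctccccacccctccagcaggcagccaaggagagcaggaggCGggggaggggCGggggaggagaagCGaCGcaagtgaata
The windows of Fzd5, Fzd7 and Lef1 held 32, 17 and 11 CpG dinucleotides, against a median of 6 over all windows. A count above that median was not particular to these genes. Windows of members ranged from 2 (Rnf43) to 48 (Wnt9a), and that of Fzd9, called in no comparison, held 42. Lef1 had 3 further windows, with 14, 6 and 5, and the one printed is the most upstream. The Sp5 window held 6.

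Levels are given as CPM, that is, counts relative to the size of the library, scaled for its composition, and values of 3 libraries are listed in the order of replicates 1 to 3. Between genes, levels are compared only per kilobase (kb) of exon. Ctnnb1 was the most abundant member, at 165 ± 0.93 CPM per kb (SD, n = 3) in J2WT ESCs and 103 ± 15.4 in PclWT EpiLCs. Among receptors Fzd5 led in J2WT ESCs at 31.5 ± 1.73 CPM per kb, followed by Fzd10 at 23.7 ± 0.873. In J2WT EpiLCs Fzd7 led at 73 ± 0.865 CPM per kb and Fzd2 followed at 14.7 ± 0.403. The order was the same in PclWT cells, where Fzd5 stood at 16 ± 0.318 in ESCs and Fzd7 at 22.3 ± 4.82 in EpiLCs. Ligand mRNA was low throughout. The highest group mean of any ligand was that of Wnt8a in PclWT EpiLCs, 10.3 ± 1.27 CPM per kb, and 10 of 19 ligands stayed under 1 CPM on average in every group.

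**Figure D1:**
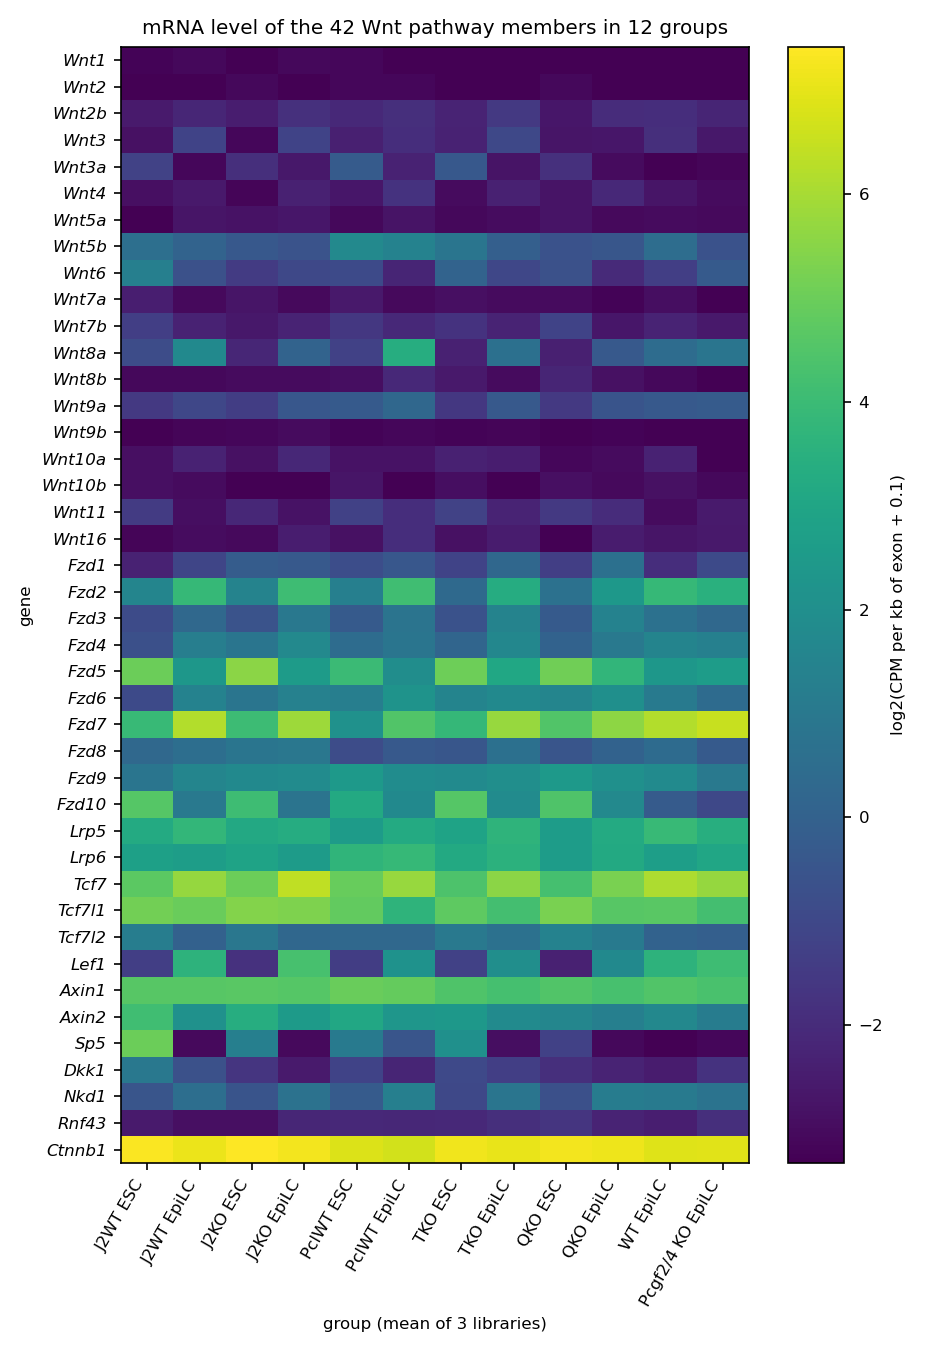
Mean level of the 42 members (rows) in the 12 groups (columns), coloured by log2(CPM per kb of exon + 0.1), each cell a mean of 3 libraries. Ctnnb1 is the brightest row, most ligand rows are dark, and Fzd5 and Fzd7 exchange the lead among receptors between ESCs and EpiLCs.

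Depth was 6784578 to 18026492 counts in genes per library, and 23.22 to 30.24% of reads fell in no gene row. The stage labels held with J2WT and PclWT together: 11 of 11 naive pluripotency genes were lower and 7 of 7 formative genes higher in WT EpiLCs. All 7 formative genes, however, had lower means in PclWT than in J2WT EpiLCs. Fgf5 was at 0.896 against 58.3 CPM, Otx2 at 3.39 against 117 and Dnmt3b at 430 against 2213. PclWT EpiLCs are the control for TKO and QKO EpiLCs. Mtf2 was at 34.6 to 48.8 CPM in TKO and QKO libraries against 198 to 422 in PclWT, and Phf1 was at 0 to 0.762 against 6.2 to 9.84. Jarid2, Pcgf2 and Bmi1 (which encodes PCGF4) were called lower in no comparison, so gene-level counts do not check those labels. Phf19 was low in PclWT, TKO and QKO, with a lower mean in TKO and QKO than in PclWT at both stages and a call in QKO EpiLCs alone. PclWT EpiLC replicate 1 stood apart from its group, and results that rest on it are given without it. QKO EpiLC replicate 2 had the most reads in no gene row (30.24%) and in rRNA genes (4.28%), and of the member calls in the 10 comparisons Axin2 in QKO EpiLCs was the one lost without it. In bulk RNA, fewer cells of a type and less RNA per cell cannot be told apart.

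A member was tested in a comparison where its mean normalised count was at least 15, and it was called where the edgeR adjusted p was under 0.05 and the level differed more than 2-fold (an absolute log2 fold change over 1). Of the 42 members, 28 could be tested in at least 1 of 10 comparisons and 19 were called in at least 1. The 14 that never reached the count minimum are 13 ligands (Wnt1, Wnt2, Wnt2b, Wnt4, Wnt5a, Wnt7a, Wnt7b, Wnt8b, Wnt9b, Wnt10a, Wnt10b, Wnt11 and Wnt16) and Rnf43.

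Between WT ESCs and WT EpiLCs, with J2WT and PclWT together, 9 members were higher in EpiLCs and 6 lower, of 26 tested. Over all genes 11.5% were called higher and 9.33% lower. The median log2 fold change was 0.22 for the members and -0.02 for all genes tested. Of the 10 Frizzled genes 6 rose and 2 fell, 1 of 4 tested ligands rose and 1 fell, and of the TCF/LEF genes Lef1 alone was called. Of the 4 targets tested, Axin2, Sp5 and Dkk1 fell and Nkd1 rose. The co-receptors and transducers were not called.

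In J2KO ESCs, 3 members were higher and 4 lower of 24 tested, beside 7.01% and 6.34% of all genes. J2KO EpiLCs had none higher and 1 lower of 25, beside 6.23% and 2.62%. For TKO ESCs the counts were 3 higher and 2 lower of 24, with 6.64% and 7.09% over all genes. For TKO EpiLCs they were 2 and 2 of 23, with 6.88% and 7.18%. QKO ESCs had 4 higher and 5 lower of 21, where 6.16% and 7.66% of all genes were called. QKO EpiLCs had 3 and 4 of 23, where 6.51% and 7.22% were. Set against TKO directly, QKO showed none higher and 3 lower of 21 in ESCs (all genes 1.37% and 3.21%). In EpiLCs the same test gave none higher and 1 lower of 23 (1.52% and 3.30%). Pcgf2/4 KO EpiLCs had none higher and 1 lower of 22 (1.96% and 3.84%). Where edgeR called none higher, DESeq2 called none either, and at an unadjusted p under 0.05 with no fold minimum 14 of 25 were higher in J2KO EpiLCs, 5 of 21 in QKO against TKO ESCs, 7 of 23 in QKO against TKO EpiLCs and 5 of 22 in Pcgf2/4 KO. With so few members called, several of these shares are near that of all genes, and the single members below carry the description.

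**Figure D2:**
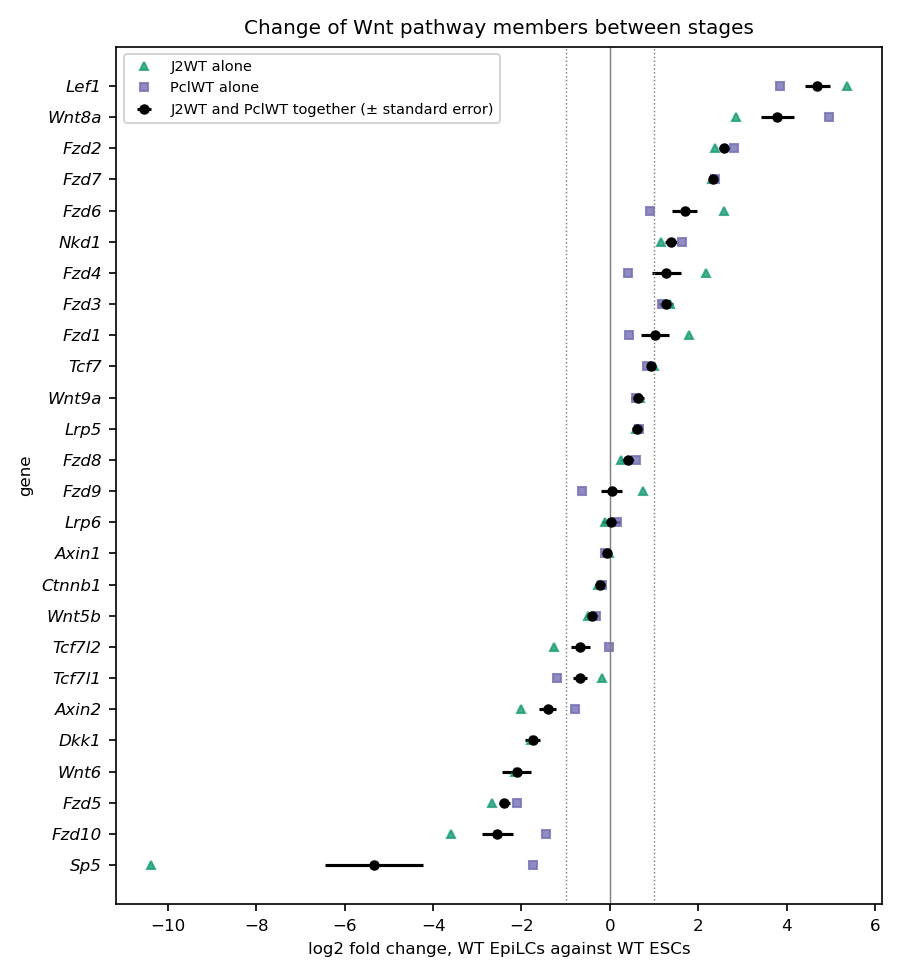
Log2 fold change of the 26 members tested, WT EpiLCs against WT ESCs (x axis). Black points and bars give the estimate and approximate standard error over both WT lines, and coloured marks each line alone. Dotted lines stand at 2-fold. Lef1 and Wnt8a lie farthest right and Sp5 farthest left, and the coloured marks lie far apart for Sp5, Fzd10, Fzd4 and Fzd6.

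Among the ligands, Wnt8a, a canonical ligand of the early embryo, rose in EpiLCs and was lower there in every PRC2 mutant. Its levels in ESCs were 0.872, 0.387 and 1.13 CPM in J2WT and 0.291, 0.963 and 0.445 in PclWT. In EpiLCs they were 5.42, 6.14 and 5.87 in J2WT and 15.6, 20.1 and 18 in PclWT. The stages thus did not overlap in either line (log2 fold change 3.79 ± 0.38, adjusted p = 5.43e-06). Errors of fold changes are approximate standard errors, the absolute log2 fold change divided by the square root of the edgeR F statistic. They can fall below counting error where counts are few. J2KO EpiLCs had 1.6, 1.52 and 1.94 CPM, all below J2WT (-1.77 ± 0.16, adjusted p = 3.22e-10). TKO EpiLCs had 2.76, 3.09 and 1.7 CPM (-2.83 ± 0.22, adjusted p = 0.000404 against PclWT). QKO EpiLCs had 1.72, 1.02 and 0.941 CPM (-3.88 ± 0.25, adjusted p = 0.000167). The libraries of TKO and of QKO all lay under the lowest PclWT library. QKO was also under TKO (-1.10 ± 0.30, adjusted p = 0.00447), but the difference fell under 2-fold without TKO EpiLC replicate 2 (-0.94) or without QKO EpiLC replicate 3 (-0.91). The WT of the Pcgf2/4 set had 2.31, 2.25 and 2.23 CPM and Pcgf2/4 KO 3.03, 2.52 and 3.27 (0.40 ± 0.22, adjusted p = 0.128), which was not called. The 3 WT lines thus differed among themselves in EpiLCs, and all 3 PclWT libraries were above every J2WT library.

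Wnt5b, a ligand best known for β-catenin-independent signalling, was called lower in 6 comparisons, more than any other member. It stood at 8.05, 9.95 and 7.68 CPM in PclWT ESCs, 4.43, 3.48 and 5.45 in TKO ESCs and 1.51, 1.52 and 1.3 in QKO ESCs. The 3 groups did not overlap. QKO fell against PclWT (-2.55 ± 0.21, adjusted p = 1.12e-08) and against TKO (-1.63 ± 0.25, adjusted p = 2.85e-05), while TKO differed from PclWT by just under 2-fold (-0.96 ± 0.18, adjusted p = 8.41e-05). In EpiLCs the values were 7.55, 6.24 and 7.11 in PclWT, 1.87, 2.47 and 2.41 in TKO and 1.72, 2.04 and 1.28 in QKO. Both mutants fell against PclWT (TKO -1.68 ± 0.19, adjusted p = 0.00128, and QKO -2.08 ± 0.22, adjusted p = 0.000863). Between themselves they overlapped (-0.44 ± 0.27, adjusted p = 0.184). J2WT ESCs had 3.8, 4.19 and 3.21 CPM and J2KO ESCs 1.6, 1.67 and 2.06 (-1.06 ± 0.18, adjusted p = 2.63e-05), a call that missed 2-fold without J2WT ESC replicate 2 (-0.97). Wnt5b was also the only member called in Pcgf2/4 KO EpiLCs, with 1.51, 1.16 and 1.73 CPM against 3.88, 3.23 and 3.39 in their WT (-1.22 ± 0.24, adjusted p = 3.63e-05). Between stages in WT cells it was not called (-0.41 ± 0.14, adjusted p = 0.0255).

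Wnt6, a ligand found in extraembryonic and epithelial tissue, was highest in J2WT ESCs, at 4.61, 4.97 and 5.98 CPM, and J2WT EpiLCs had 1.22, 1.35 and 0.894. It fell between stages over both lines (-2.11 ± 0.33, adjusted p = 0.000179), although PclWT ESCs had only 1.36, 1.07 and 0.445 CPM and PclWT EpiLCs 0.438, 0.307 and 0. J2KO ESCs had 0.534, 0.496 and 0.73 CPM, all below the J2WT libraries (-3.13 ± 0.22, adjusted p = 9.34e-11). In EpiLCs J2KO and J2WT were at 0.737, 1.09 and 0.841 and 1.22, 1.35 and 0.894 CPM (-0.35 ± 0.29, adjusted p = 0.29, not called). Wnt9a fell in TKO ESCs, from 2.13, 2.89 and 2.12 CPM in PclWT to 0.605, 1.41 and 0.314 (-1.64 ± 0.37, adjusted p = 0.000701), and was at 0.927, 0.635 and 0.869 in QKO ESCs, where it was under the count minimum.

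Several ligands were counted too sparsely for a test in most comparisons. Wnt3, which acts in forming the primitive streak, had 6 counts over 3 libraries of J2WT ESCs and 51 in J2WT EpiLCs, a ratio of 8.34 (95% interval 3.58 to 23.8) after scaling for depth. These intervals are exact and cover counting error only. In PclWT the stages overlapped for Wnt3, at 0.194, 0.428 and 0.223 CPM in ESCs and 0.438, 0.716 and 0.4 in EpiLCs. Wnt3 reached 35 counts in TKO EpiLCs and 5 in QKO EpiLCs, a ratio of 7.6 (95% interval 2.97 to 24.9). Wnt3a fell between stages in both lines. It had 43 counts in J2WT ESCs and 2 in J2WT EpiLCs, a ratio of 21.9 (95% interval 5.71 to 187), and 59 against 8 in PclWT, a ratio of 7.44 (95% interval 3.54 to 18). Wnt11 had 52 counts in J2WT ESCs and 6 in J2WT EpiLCs, a ratio of 8.84 (95% interval 3.8 to 25.2), but in PclWT it had 38 and 20. Wnt7b had 69 counts in J2WT ESCs and 14 in J2KO ESCs. Wnt2b reached no more than 37 counts in any group. The other ligands never tested (Wnt1, Wnt2, Wnt4, Wnt5a, Wnt7a, Wnt8b, Wnt9b, Wnt10a, Wnt10b and Wnt16) had at most 24, a count reached by Wnt4 in PclWT EpiLCs.

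Of the Frizzled receptors, Fzd5 and Fzd7 moved in opposite directions between stages and in the same direction in TKO and QKO cells. Fzd5, which acts in early embryonic and eye development, had 108, 112 and 111 CPM in PclWT ESCs and 21, 27.9 and 29.6 in PclWT EpiLCs. In J2WT it had 230, 218 and 206 and 32.3, 34.9 and 35.6. It fell over both lines (-2.39 ± 0.12, adjusted p = 1.85e-08) and in each alone (-2.66 and -2.09). TKO ESCs had 222, 231 and 225 CPM and QKO ESCs 229, 227 and 244, every library above every PclWT one. The rises were 1.00 ± 0.05, adjusted p = 6.92e-12, in TKO, and 1.08 ± 0.05, adjusted p = 1.11e-11, in QKO, and the mutants did not differ detectably from each other (0.04 ± 0.05, adjusted p = 0.531). The TKO rise stood at the 2-fold limit and was just under it without PclWT ESC replicate 1 or TKO ESC replicate 2 (0.99 each). In EpiLCs TKO had 58.4, 57.1 and 58.3 CPM (1.11 ± 0.15, adjusted p = 0.00203) and QKO 90.7, 95.7 and 85.5 (1.78 ± 0.15, adjusted p = 0.000432). QKO lay above TKO in all libraries (0.62 ± 0.05, adjusted p = 8.34e-10), by less than 2-fold. Without PclWT EpiLC replicate 1 the TKO value was 0.99. J2KO cells had 328, 318 and 322 CPM as ESCs and 38.7, 41.7 and 40.5 as EpiLCs, above J2WT in every library but by less than 2-fold (0.57 and 0.25).

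Fzd7, a main receptor for canonical signals in pluripotent cells, had 19.8, 18.6 and 19 CPM in PclWT ESCs and 76.2, 110 and 117 in PclWT EpiLCs. J2WT cells had 69.4, 68 and 65.1 and 326, 333 and 333. It rose between stages (2.34 ± 0.10, adjusted p = 5.1e-09) from different starting levels in the 2 lines. TKO ESCs had 61, 65.6 and 61.8 CPM (1.68 ± 0.08, adjusted p = 8.17e-13) and QKO ESCs 102, 105 and 102 (2.43 ± 0.06, adjusted p = 1.03e-14). All mutant libraries were above PclWT, and QKO above TKO (0.71 ± 0.05, adjusted p = 1.54e-09). TKO levels were close to those of J2WT ESCs, in another line. In EpiLCs, TKO had 237, 239 and 252 CPM (1.23 ± 0.17, adjusted p = 0.00233) and QKO 230, 212 and 216 (1.11 ± 0.17, adjusted p = 0.00375). The QKO value was 0.92 without PclWT EpiLC replicate 1, under 2-fold. J2KO and Pcgf2/4 KO gave differences of under 2-fold, 0.13 in J2KO ESCs, -0.32 in J2KO EpiLCs and 0.35 in Pcgf2/4 KO.

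Fzd10 fell between stages with Fzd5, and Fzd2 rose with Fzd7. Fzd10 had 79.9, 74.3 and 76.8 CPM in J2WT ESCs, 6.22, 5.77 and 6.9 in J2WT EpiLCs, 27.4, 30.6 and 30.1 in PclWT ESCs and 8.31, 12.4 and 11.7 in PclWT EpiLCs (-2.55 ± 0.35, adjusted p = 6.73e-05). It rose in TKO ESCs, to 78, 74.7 and 77.9 CPM (1.36 ± 0.07, adjusted p = 3.94e-12), and in QKO ESCs, to 73.3, 65.3 and 74.4 (1.28 ± 0.07, adjusted p = 1.26e-10). In EpiLCs TKO, QKO and PclWT overlapped (0.02 and -0.05, adjusted p = 0.956 and 0.876). Fzd2 had 8.14, 10.3 and 7.79 CPM in PclWT ESCs and 71.2, 60.2 and 56.3 in PclWT EpiLCs, and 10.6, 10.5 and 10.1 and 52.8, 53.5 and 55.6 in J2WT (2.59 ± 0.11, adjusted p = 5.1e-09). Unlike Fzd7, it had a negative log2 fold change in TKO and QKO at both stages, called in TKO ESCs and QKO EpiLCs (-0.81 in TKO EpiLCs and -0.64 in QKO ESCs, not called). TKO ESCs had 4.54, 4.45 and 3.87 CPM (-1.05 ± 0.16, adjusted p = 1.46e-05), a call lost at -0.93 without PclWT ESC replicate 2 and at -0.98 without TKO ESC replicate 3. QKO EpiLCs had 19.1, 18.7 and 18.7 CPM (-1.74 ± 0.13, adjusted p = 0.000264), below the 32.7, 37.8 and 39.4 of TKO EpiLCs (-0.96 ± 0.08, adjusted p = 3.25e-09).

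In J2KO ESCs 3 Frizzled genes rose that were low in J2WT ESCs, Fzd1, Fzd4 and Fzd6. Fzd1 went from 0.311, 0.709 and 0.315 to 3.33, 3.84 and 2.65 CPM (2.88 ± 0.28, adjusted p = 1.68e-08). Fzd4, which also serves as receptor for Norrin in blood vessels of the retina, went from 3.36, 3.55 and 3.46 to 11, 11.5 and 11.6 (1.72 ± 0.11, adjusted p = 1.94e-11). Fzd6, a receptor of planar cell polarity, went from 2.49, 2 and 1.83 to 8.25, 8.18 and 8.43 (1.98 ± 0.14, adjusted p = 8.6e-11). No J2KO ESC library overlapped J2WT for these genes. In EpiLCs the J2WT libraries stood at 1.71, 1.35 and 1.6 CPM for Fzd1, 14.8, 15 and 16.8 for Fzd4 and 12.9, 12.8 and 12.2 for Fzd6, and none of the 3 was called in J2KO EpiLCs (0.92, 0.50 and -0.03). All 3 rose between stages over both WT lines (Fzd1 1.02 ± 0.31, adjusted p = 0.0155; Fzd4 1.28; Fzd6 1.69), but not by 2-fold in PclWT alone (0.42, 0.39 and 0.90). PclWT ESCs already had 7.37, 9.42 and 9.24 CPM of Fzd4 and 12.6, 11.4 and 9.8 of Fzd6. The Fzd1 call over both lines was lost in 5 of 12 refits that left out a library, at 0.87 to 0.96. In QKO EpiLCs Fzd1 rose from 2.41, 3.17 and 2.7 in PclWT to 6.59, 5.65 and 5.9 CPM (1.11 ± 0.18, adjusted p = 0.00452).

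Fzd3, a receptor of axon guidance, rose between stages, from 5.85, 6.13 and 5.35 to 15.2, 14.1 and 15 CPM in J2WT and from 8.14, 9.31 and 10 to 13.8, 23.5 and 25.5 in PclWT (1.27 ± 0.15, adjusted p = 1.83e-05), and was called in no mutant. Fzd8 and Fzd9 were called in no comparison. Fzd8 was just under 2-fold higher in TKO EpiLCs (0.99 ± 0.16, adjusted p = 0.00384), and Fzd9 in J2KO ESCs (0.97 ± 0.12, adjusted p = 3.97e-07).

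Where TKO and QKO EpiLCs are compared with PclWT, markers of other cell types moved too. The summed level of 8 primitive endoderm genes was 247 to 273 CPM in TKO EpiLCs and 160 to 166 in QKO EpiLCs, against 41.2 to 78.4 in PclWT EpiLCs, and none of the 8 was at 0. Of 7 tested, 7 were higher in TKO, and 4 of 6 in QKO. For 8 neuroectoderm genes the sums were 125 to 133 CPM in TKO, 62.4 to 71.9 in QKO and 27.1 to 35 in PclWT EpiLCs, with 2 of 3 tested higher in TKO (Sox1 and Pax6), and 1 of 3 higher (Sox1) and 1 lower (Nes) in QKO. The summed level of 11 naive genes was 682 to 749 CPM in TKO, 1490 to 1594 in QKO and 408 to 513 in PclWT EpiLCs. Of the 11, 6 were called higher and 2 lower (Klf2 and Tcl1) in TKO, and 8 higher and 1 lower (Klf2) in QKO. In PclWT ESCs the sum was 4138 to 4292. The 7 formative genes summed to 1013 to 1206 CPM in PclWT EpiLCs, 2261 to 2408 in TKO, 2843 to 3217 in QKO and 3985 to 4077 in J2WT. All 7 were tested in TKO, and 4 were called higher (Fgf5, Otx2, Dnmt3a and Sall2). Among 6 tested in QKO, Otx2 and Dnmt3a were higher and Dnmt3b lower. Dnmt3a made up most of the QKO sum, at a mean of 2614 CPM against 460 in PclWT EpiLCs. Pou3f1 and Zic2 had lower means in QKO (63 and 74.3 CPM) than in PclWT (122 and 91.8). The part of any of these in the values of Fzd5, Fzd7, Wnt8a and the other members was not tested. In J2KO EpiLCs 4 of 7 formative genes were called higher (sum 5083 to 5169 CPM against 3985 to 4077 in J2WT), and of 5 primitive endoderm genes tested 3 were lower and 1 higher (sum 35.9 to 39.2 against 67.4 to 71.2). Among 4 neuroectoderm genes tested, Zic1 was higher and Sox1 lower (sum 31.8 to 32.4 against 54.5 to 56.4). In Pcgf2/4 KO EpiLCs, where Wnt5b fell, 3 of 4 fibroblast genes tested (Dcn, Col1a2 and Thy1) were lower, and the 9 of the list summed to 7.08 to 10.1 CPM against 21.3 to 23.6, with 4 at 0 in the KO and 3 in the WT. There Fgf5 was lower, 1 of 7 formative genes tested (sum 2988 to 3066 CPM against 4261 to 4269). Sox1 was lower, 1 of 3 neuroectoderm genes (sum 31.3 to 34.1 against 62.4 to 67.3). Gata6 was higher, 1 of 4 primitive endoderm genes (sum 63.9 to 68.1 against 32.2 to 34.2). Naive genes also summed higher in J2KO EpiLCs (621 to 639 CPM against 397 to 411) and in Pcgf2/4 KO EpiLCs (770 to 853 against 416 to 430), with 4 and 7 of 11 called higher. The part of these in the members' values was likewise not tested.

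Markers also moved in the ESC comparisons. In J2KO ESCs, where Fzd1, Fzd4 and Fzd6 rose, 4 of 6 formative genes tested were higher (Sall2, Pou3f1, Zic2 and Otx2) and Dnmt3b was lower, while the 7 of the list summed to 217 to 221 CPM against 318 to 329 in J2WT. Of 4 streak genes tested T and Gsc were lower (sum of 9 genes 106 to 108 against 95.6 to 102), and of 4 primitive endoderm genes Gata4 was higher and Dab2 lower (sum of 8 genes 332 to 343 against 239 to 267). In TKO ESCs 4 of 11 naive genes were higher (sum 6376 to 6740 CPM against 4138 to 4292 in PclWT). Of 5 streak genes Eomes and T were higher and Mixl1 lower (sum 145 to 155 against 149 to 168), and of 5 primitive endoderm genes Sox7, Gata4 and Lama1 were higher and Dab2 lower (sum 205 to 224 against 179 to 201). In QKO ESCs 3 of 11 naive genes were higher (sum 6042 to 6099), and of 6 formative genes Otx2 and Zic2 were higher and Dnmt3a lower (sum 308 to 328 against 345 to 371). Their part in the members' values was not tested.

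**Figure D3:**
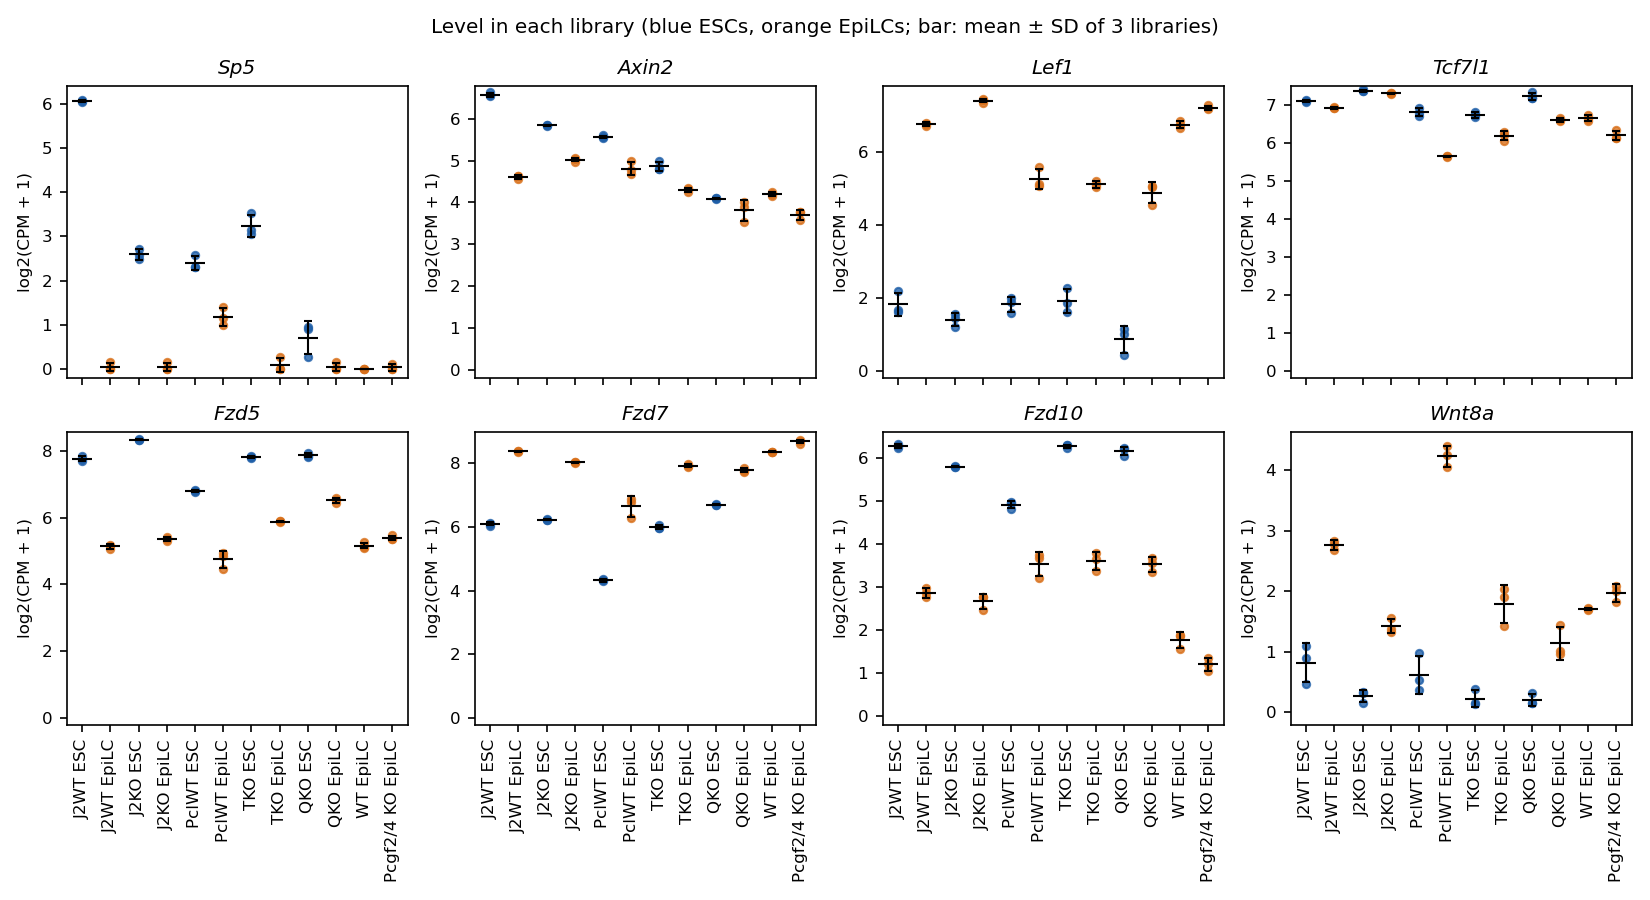
Level of 8 members in each of 36 libraries as log2(CPM + 1), by group (x axis), with blue points for ESC libraries, orange points for EpiLC libraries and bars for the mean ± SD of 3. Sp5 is highest in J2WT ESCs, Lef1 is high in every EpiLC group, Fzd5 and Fzd7 are higher in TKO and QKO than in PclWT at both stages, and Wnt8a peaks in PclWT EpiLCs.

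The co-receptor genes Lrp5 and Lrp6 were called once in the 10 comparisons. Lrp6 fell in QKO ESCs to 85.6, 79.5 and 79.2 CPM, from 150, 187 and 187 in PclWT (-1.10 ± 0.07, adjusted p = 1.26e-09), with TKO in between at 115, 132 and 122 (-0.53 ± 0.08, adjusted p = 4.53e-06, not called). In PclWT EpiLCs replicate 1 stood apart, at 94.5, 248 and 253 CPM over the 3 libraries. Lrp5 ranged from 52.7 to 59.5 CPM in PclWT ESCs to 145 to 147 in the WT EpiLCs of the Pcgf2/4 set.

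Of the TCF/LEF factors, Lef1, most often an activator, had the largest rise between stages among the members. J2WT ESCs had 3.55, 2.06 and 2.2 CPM and J2WT EpiLCs 111, 108 and 103. PclWT had 3.01, 2.68 and 2 and 47, 32.5 and 33.9 (4.69 ± 0.28, adjusted p = 6.65e-08). In QKO ESCs Lef1 fell to 0.347, 1.02 and 1.2 CPM, below PclWT (-1.57 ± 0.34, adjusted p = 0.000599) and below the 2.62, 2.06 and 3.87 of TKO ESCs (-1.73 ± 0.35, adjusted p = 0.000594). In EpiLCs the TKO and QKO libraries, at 31.7, 36 and 33.2 and 32.5, 22.5 and 31.9 CPM, overlapped or bordered PclWT (-0.21 and -0.40, adjusted p = 0.38 and 0.187). J2KO EpiLCs had 172, 163 and 173 CPM, above J2WT in every library by less than 2-fold (0.68 ± 0.04, adjusted p = 1.64e-15).

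Tcf7l1, the main TCF repressor of ESCs, had 140, 136 and 135 CPM in J2WT ESCs and 119, 122 and 119 in J2WT EpiLCs, but 104, 120 and 109 and 48.7, 49 and 49.6 in PclWT. Over both lines its stage difference was -0.68 ± 0.16, adjusted p = 0.00308, under 2-fold. QKO EpiLCs had 100, 95.9 and 93.6 CPM, above all PclWT libraries by just under 2-fold (0.96 ± 0.10, adjusted p = 0.000853), and TKO EpiLCs 77.6, 65.6 and 73.1 (0.51 ± 0.11, adjusted p = 0.0118). Tcf7l2 rose in QKO ESCs, to 23, 21 and 24.4 CPM from 8.53, 10.3 and 11.1 (1.21 ± 0.11, adjusted p = 6.31e-08), and was 0.75 ± 0.13, adjusted p = 5.4e-05, in TKO ESCs, not called. Tcf7, the most abundant of the 4 factors per kb in EpiLCs of both lines (51.9 ± 0.771 CPM per kb in J2WT), was just under 2-fold higher there than in ESCs (0.92 ± 0.08, adjusted p = 1.24e-06). It differed by 0.72 in J2KO EpiLCs and -0.66 in QKO ESCs, neither of them called.

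The transducers Ctnnb1, which encodes β-catenin, and Axin1, a scaffold of the complex that marks it for breakdown, were tested in all 10 comparisons and called in none. Ctnnb1 differed by -0.23 between stages and by 0.05 to 0.45 in the mutants against their wild types. Axin1 in TKO differed from PclWT by -0.55 in ESCs and -0.67 in EpiLCs on the log2 scale (adjusted p = 5.94e-08 and 0.00897). These are mRNA levels and say nothing of β-catenin protein or its place in the cell.

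Among the targets, Axin2, a negative feedback gene widely used as a readout of the pathway, fell between stages and was lower still in QKO cells. J2WT ESCs had 97.9, 93.5 and 91.6 CPM and J2WT EpiLCs 23.8, 22.5 and 23.9. PclWT ESCs had 45.8, 47.5 and 46.2 and PclWT EpiLCs 24.5, 30.7 and 26.3. The change was -1.41 ± 0.19, adjusted p = 6.83e-05, over both lines, and -0.80 in PclWT alone. TKO ESCs had 30.7, 26.7 and 27 CPM, below PclWT by less than 2-fold (-0.75 ± 0.08, adjusted p = 5.71e-08), and QKO ESCs 15.8, 16.1 and 16.2 (-1.53 ± 0.07, adjusted p = 2.04e-11). QKO was below TKO in every library (-0.82 ± 0.09, adjusted p = 5.31e-07, not called). In EpiLCs QKO had 15.1, 10.5 and 13.9 CPM (-1.06 ± 0.17, adjusted p = 0.00446), a call lost without QKO EpiLC replicate 2 (-0.92), the library highest in rRNA reads, or PclWT EpiLC replicate 2 (-0.96). J2KO ESCs had 56.5, 56.1 and 57.1 CPM, below J2WT (-0.73 ± 0.04, adjusted p = 3.64e-12), whereas J2KO EpiLCs had 31.9, 30.5 and 32.3, above J2WT (0.45 ± 0.06, adjusted p = 1.52e-07). Neither difference reached 2-fold, and no library overlapped.

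Sp5, whose promoter is printed above, differed more between groups than any other member. J2WT ESCs had 67.2, 66 and 65 CPM, J2KO ESCs 4.99, 4.58 and 5.57 and PclWT ESCs 3.98, 3.96 and 5.01. J2KO ESCs thus fell against J2WT (-3.70 ± 0.07, adjusted p = 1.27e-19). TKO ESCs had 10.5, 7.82 and 7.33 CPM, above every PclWT library by just under 2-fold (0.97 ± 0.18, adjusted p = 8.63e-05). QKO ESCs had 0.927, 0.889 and 0.217, below PclWT (-2.67 ± 0.32, adjusted p = 1.47e-06) and below TKO (-3.67 ± 0.30, adjusted p = 6.6e-09). The 2 wild-type ESC lines were further apart than any mutant was from PclWT. In EpiLCs Sp5 was all but uncounted outside PclWT. Over 3 libraries there were 2 counts in J2WT EpiLCs, 2 in J2KO, 2 in TKO and 1 in QKO, against 37 in PclWT EpiLCs. The 3 WT EpiLC libraries of the Pcgf2/4 set had none, which allows up to 3 counts over the group. Fitted fold changes depend on the prior count at such levels, so ratios of depth-scaled counts are given. The ratio of ESCs to EpiLCs was 1599 (95% interval 442 to 13206) in J2WT, 121 (95% interval 33.3 to 1009) in J2KO, 120 (95% interval 32.9 to 997) in TKO and 20.1 (95% interval 3.15 to 840) in QKO. In PclWT the fitted log2 fold change between stages was -1.75 ± 0.32, adjusted p = 0.000216. PclWT EpiLCs exceeded TKO EpiLCs by a ratio of 17.9 (95% interval 4.62 to 153) and QKO EpiLCs by 38.9 (95% interval 6.57 to 1578).

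Dkk1, a secreted inhibitor that binds LRP5 and LRP6, was also highest in J2WT ESCs, at 4.42, 4.97 and 4.22 CPM. It fell to 1.1, 1.41 and 1.4 in J2WT EpiLCs (both lines -1.74 ± 0.17, adjusted p = 3.87e-06) and to 0.534, 0.744 and 0.265 in J2KO ESCs (-3.09 ± 0.24, adjusted p = 4.36e-10). PclWT ESCs had 0.873, 0.749 and 0.891 CPM and PclWT EpiLCs 0.328, 0.205 and 0.3. In the PclWT, TKO and QKO libraries Dkk1 was under the count minimum. Nkd1, an inhibitor that binds Dishevelled, rose between stages, from 3.24, 2.58 and 2.65 to 5.54, 6.44 and 6.77 CPM in J2WT and from 3.59, 3 and 3.78 to 10.4, 12.2 and 10.1 in PclWT (1.39 ± 0.14, adjusted p = 6.06e-06). It thus moved against Axin2, Sp5 and Dkk1, and it was called in no mutant. Rnf43, which encodes a ubiquitin ligase that removes Frizzled receptors, never passed 1.65 CPM in a library.

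**Figure D4:**
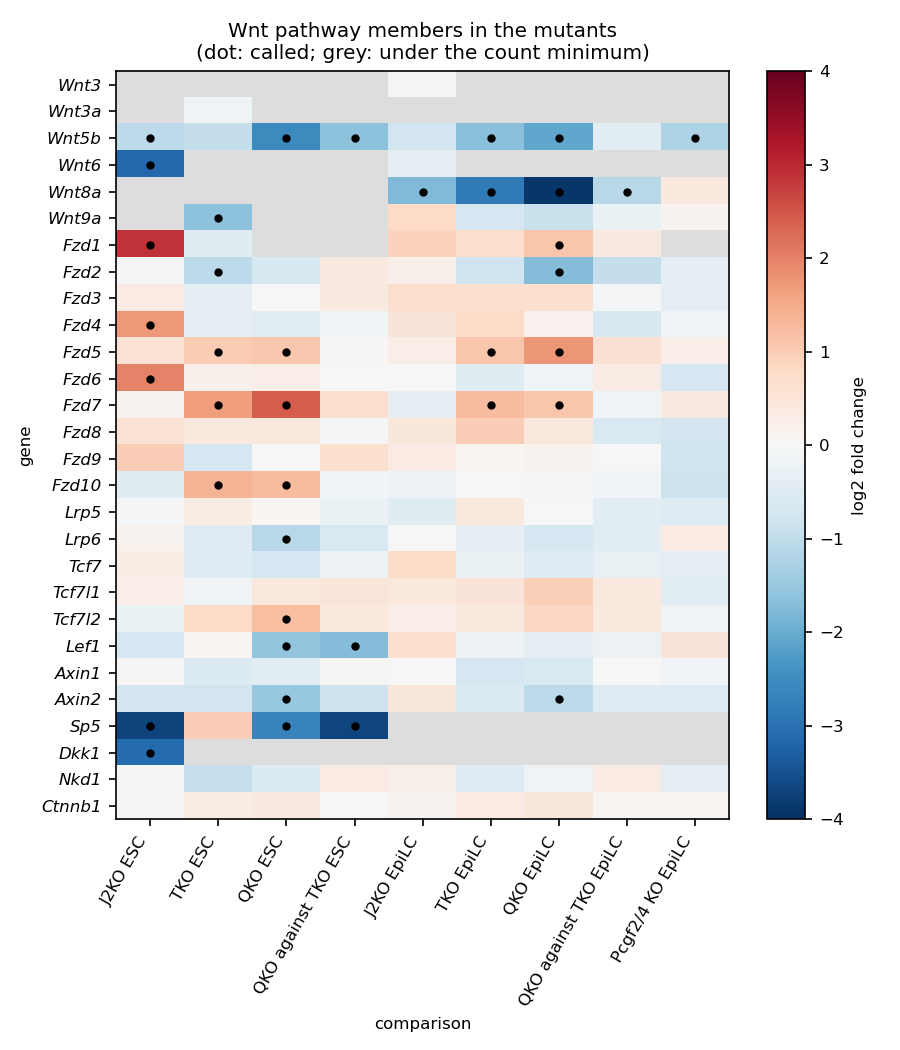
Log2 fold change (colour, limited to ±4) of the 28 members tested at least once (rows) in the 9 mutant comparisons (columns), with a black dot for a member called and grey where it was under the count minimum. Wnt5b is blue in every column, Fzd5 and Fzd7 carry dots in the 4 columns that set TKO or QKO against PclWT, and the J2KO EpiLC and Pcgf2/4 KO columns have a single dot each.

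Whether the stage effect itself differed between lines was tested as an interaction, called at an adjusted p under 0.05 with no fold minimum. Between PclWT and J2WT it differed for 13 of 26 members, where 42.8% of all genes did. Downward effects were smaller in PclWT than in J2WT for Fzd10 (2.15 ± 0.18, adjusted p = 4.14e-06, PclWT minus J2WT) and Axin2 (1.21 ± 0.12, adjusted p = 1.22e-05), and Lef1 rose less (-1.51 ± 0.32, adjusted p = 0.00235). Wnt8a rose more in PclWT (2.11 ± 0.50, adjusted p = 0.00521). In J2KO against J2WT, 14 of 26 members differed, beside 54.1% of all genes. The stage effect was shifted upward in J2KO for Wnt6 (2.75 ± 0.40, adjusted p = 7.44e-07) and Axin2 (1.16 ± 0.07, adjusted p = 9.45e-15), and downward for Fzd6 (-2.03 ± 0.17, adjusted p = 1.9e-11) and Fzd1 (-1.98 ± 0.37, adjusted p = 4.28e-05). In TKO against PclWT 8 of 24 differed (21.4% of all genes), and in QKO 7 of 24 (21.1%). Fzd10 fell further in both mutants (-1.31 and -1.32), the effect on Fzd1 was higher (1.23 and 1.81), and in QKO Fzd7 rose less (-1.32 ± 0.17, adjusted p = 2.66e-05). The Fzd1 difference in TKO was lost in 4 of 18 refits that left out a library, PclWT ESC replicate 2 (0.85, adjusted p = 0.13), TKO ESC replicate 2 (1.10) or 3 (1.12) or TKO EpiLC replicate 2 (1.16). The J2WT, PclWT and Pcgf2/4 sets are different lines, and how far line, culture or library batch divides them was not tested.

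The rest of the pathway was read from a list of 59 further genes, of which 42 to 48 were tested in each comparison. Between stages 6 of 48 tested were higher and 10 lower, beside 11.5% and 9.33% of all genes. Ror1, a receptor for Wnt5a-type ligands, rose (3.45 ± 0.78), as did the secreted Wnt-binding gene Sfrp2 (2.72 ± 0.43) and Rspo1, which encodes an agonist that stabilises Frizzled (2.06 ± 0.33). The Ror1 rise was seen in J2WT, from a mean of 0.127 CPM in ESCs to 6.83 in EpiLCs. In PclWT the Ror1 libraries overlapped, at 0.291 to 0.779 CPM in ESCs and 0.109 to 1.4 in EpiLCs. The Wnt targets Cdx1 (-5.79 ± 0.76) and T (-3.04 ± 0.50) fell, and so did Sfrp1 (-3.46 ± 0.46).

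In J2KO ESCs 4 of 44 tested were higher and 4 lower, beside 7.01% and 6.34% of all genes. Sfrp2 (2.81 ± 0.16), Sfrp4 (1.98 ± 0.11) and Dkk3 (1.46 ± 0.10) rose, and T (-2.66 ± 0.24), Cdx1 (-2.21 ± 0.05) and the casein kinase gene Csnk1e (-1.32 ± 0.04) fell. Other genes of the list, chosen after their values were seen, had higher means in J2KO than in J2WT ESCs without being called, Notum at 26.5 ± 1.09 against 13.3 ± 0.512 CPM (SD, n = 3), Znrf3 at 45.7 ± 1.35 against 31.8 ± 0.952, Ccnd1 at 98.1 ± 3.82 against 69.5 ± 3.42 and Tnfrsf19 at 24.2 ± 0.696 against 14.7 ± 0.269. Others had lower means without being called, such as Porcn at 22.5 ± 1.1 against 36.2 ± 1.35 CPM and Vangl1 at 106 ± 5.27 against 152 ± 4.12. In J2KO EpiLCs 7 of 47 tested were higher and 2 lower, beside 6.23% and 2.62% of all genes. Those higher were led by Porcn (2.46 ± 0.09), Dkk3 (1.57 ± 0.23) and Wls (1.49 ± 0.25), with Ror1 (-1.68 ± 0.17) and Tle2 (-1.10 ± 0.26) lower.

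In TKO ESCs 5 of 47 tested were higher and 5 lower, beside 6.64% and 7.09% of all genes, with T (1.61 ± 0.26), Celsr1 (1.29 ± 0.12) and Sfrp1 (1.23 ± 0.06) up and Nkd2 (-1.83 ± 0.23), Dkk3 (-1.35 ± 0.20) and Wls (-1.20 ± 0.09) down. In QKO ESCs 2 of 45 tested were higher and 5 lower, beside 6.16% and 7.66% of all genes. Notum (1.45 ± 0.08) and Tnfrsf19 (1.35 ± 0.15) were higher, and the lower genes were led by Nkd2 (-2.41 ± 0.26), Sfrp4 (-2.02 ± 0.41) and Wls (-1.68 ± 0.10). Set against TKO, in QKO ESCs 1 of 44 tested were higher and 3 lower, beside 1.37% and 3.21% of all genes, with Notum higher (1.36 ± 0.08) and Sfrp4 (-1.66 ± 0.39), T (-1.65 ± 0.25) and Ccnd1 (-1.07 ± 0.06) lower.

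In TKO EpiLCs the 5 called of 46 tested were all higher, beside 6.88% of all genes higher and 7.18% lower, led by the SP5 relative Sp8 (2.19 ± 0.20), the cyclin gene Ccnd1 (1.79 ± 0.23) and Tnfrsf19 (1.72 ± 0.13). In QKO EpiLCs 6 of 46 tested were higher and 3 lower, beside 6.51% and 7.22% of all genes. The higher genes were led by the glypican gene Gpc4 (2.66 ± 0.23), Porcn (1.78 ± 0.14) and Tnfrsf19 (1.68 ± 0.13), and the lower genes were Prickle1 (-1.12 ± 0.22), Pygo1 (-1.09 ± 0.16) and Znrf3 (-1.02 ± 0.24). Against TKO, in QKO EpiLCs 4 of 48 tested were higher and 1 lower, beside 1.52% and 3.30% of all genes, with Notum (2.04 ± 0.23), Porcn (1.31 ± 0.11) and Cdx1 (1.14 ± 0.15) up and Sp8 down, at the 2-fold limit. In Pcgf2/4 KO EpiLCs 3 of 42 tested were higher and 3 lower, beside 1.96% and 3.84% of all genes. Those higher were Notum (1.97 ± 0.25), Porcn (1.61 ± 0.11) and Vangl1 (1.29 ± 0.07), and those lower Sfrp4 (-1.27 ± 0.11), Tnfrsf19 (-1.13 ± 0.17) and Ror1 (-1.09 ± 0.22). Porcn stood at 7.78 to 8.71 CPM in PclWT EpiLCs, 10.7 to 12.1 in TKO and 24.8 to 32 in QKO, and at 4.08 to 4.36 in J2WT and 22 to 23.8 in J2KO EpiLCs.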

How the data were processed

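Poly(A) RNA of 36 libraries was sequenced on an Illumina NextSeq. The authors aligned reads with STAR to GRCm38 with Ensembl annotation, and the deposited files hold raw counts of reads per gene, of which the column without strand was used. Reads of overlapping or antisense genes cannot be told apart there. Reads in no gene row (23.22 to 30.24%) were left out. Names and positions came from GENCODE vM21.

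Counts were tested with edgeR 4.0.16 in R 4.3.3 (TMM, quasi-likelihood F test, mean normalised count of at least 15, Benjamini-Hochberg adjustment over all genes tested). WT stages were fitted with line and stage as terms. Genotypes were fitted on the 6 libraries compared, and stage differences as interactions over the J2 or the Pcl family. Alternatives were RLE scaling, DESeq2 1.42.0, no minimum, a minimum of 50, a replicate block, and each library left out. Scripts were tested on simulated data. Sequences and figures were made with Python 3.11.15.

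Members and gene lists were chosen with earlier results of these data known. Every member could be named, with values in every library for those called. Of the 59 further Wnt genes, the 3 called with the largest change in each direction were named. The uncalled genes given for J2KO ESCs were named outside this rule. The neuroectoderm, primitive streak and fibroblast lists were also read. Between WT stages 1 of 2 tested neuroectoderm genes and 4 of 5 fibroblast genes were higher, and 1 of 4 streak genes was lower.

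Deviations of same-numbered libraries correlated above a limit of 0.1 for every number only between PclWT ESCs and PclWT EpiLCs (r = 0.382, 0.19 and 0.159 across genes). Libraries of different numbers there reached 0.201, above the values of replicates 2 and 3. Pairing by number is thus not established, and the labels do not say what a number marks.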

Additional observations from a re-analysis of the deposited data

Results flagged for a closer look

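Each value here is a difference between 2 stage effects that passed the interaction test (edgeR, adjusted p under 0.05), on the log2 scale, and no cause was tested. For PclWT minus J2WT the differences were 2.11 for Wnt8a, -1.36 for Fzd1, 0.44 for Fzd2, -1.77 for Fzd4, 0.57 for Fzd5, -1.68 for Fzd6, -1.36 for Fzd9, 2.15 for Fzd10, -1.01 for Tcf7l1, 1.25 for Tcf7l2, -1.51 for Lef1, 1.21 for Axin2 and 8.58 for Sp5. The Sp5 value rests on 2 counts over the 3 J2WT EpiLC libraries, so its size depends on the prior count, and so does the Sp5 value in TKO. For J2KO minus J2WT they were 2.75 for Wnt6, -1.98 for Fzd1, 0.26 for Fzd2, -1.24 for Fzd4, -0.34 for Fzd5, -2.03 for Fzd6, -0.48 for Fzd7, -0.66 for Fzd9, -0.45 for Lrp5, -0.19 for Lrp6, 0.40 for Tcf7, 0.51 for Tcf7l2, 1.31 for Lef1 and 1.16 for Axin2. For TKO minus PclWT the values were 1.23 for Fzd1, 1.10 for Fzd3, 1.16 for Fzd4, -0.66 for Fzd6, 0.82 for Fzd9, -1.31 for Fzd10, 0.65 for Tcf7l1 and -4.90 for Sp5. For QKO minus PclWT, which shares its controls with the TKO test, they were 1.81 for Fzd1, -1.09 for Fzd2, 0.70 for Fzd5, -1.32 for Fzd7, -1.32 for Fzd10, 0.54 for Tcf7l1 and 0.48 for Axin2. The differences of Fzd6 in TKO, Axin2 in QKO, Fzd2 between lines and Lrp6 in J2KO were lost in over 1 in 2 refits that left out a library, and that of Fzd1 between lines in 6 of 12.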

How the results depend on the processing

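No called member reversed its direction under any alternative run. RLE scaling kept all 95 calls, DESeq2 94 (Lrp6 in the J2KO stage difference was lost), and a fit of J2WT alone kept all 15 stage calls. PclWT alone lost 4 of 13, Fzd1, Fzd4, Fzd6 and Axin2. Under the replicate block 92 of 95 calls held. The block took the adjusted p to 0.0586 for Fzd2 between PclWT and J2WT, to 0.0602 for Fzd6 in TKO and to 0.0564 for Axin2 in QKO, all stage differences, and changed no other call. Without a count minimum more members were tested, and the members called numbered 23 between WT stages, 3 in J2KO EpiLCs, 2 in QKO against TKO EpiLCs and 4 in Pcgf2/4 KO. With a minimum of 50 fewer were tested, and the calls numbered 3 in J2KO ESCs and 0 in QKO against TKO ESCs, QKO against TKO EpiLCs and Pcgf2/4 KO. With all WT EpiLC libraries as control, Pcgf2/4 KO had 3. Without a minimum Fzd2 (between lines and in J2KO) and Axin2 (in QKO) lost their stage differences. Of 995 refits of a call with a library left out, 930 kept it and 65 lost it. Most losses sat on a few stage differences, Fzd6 in TKO (12 of 18 refits), Axin2 in QKO (12 of 18), Fzd2 (8 of 12) and Fzd1 (6 of 12) between lines and Lrp6 in J2KO (7 of 12). Calls then numbered 14 to 15 between WT stages, 6 to 8 in J2KO ESCs, 1 to 1 in J2KO EpiLCs, 4 to 6 in TKO ESCs, 4 to 6 in TKO EpiLCs, 8 to 10 in QKO ESCs and 6 to 7 in QKO EpiLCs. They numbered 2 to 3 in QKO against TKO ESCs, 0 to 2 in QKO against TKO EpiLCs and 1 to 1 in Pcgf2/4 KO. The stage differences gave 11 to 18 between WT lines, 14 to 17 in J2KO, 6 to 11 in TKO and 6 to 12 in QKO, where 12 came from leaving out PclWT EpiLC replicate 1. The value for QKO against TKO EpiLCs was 2 without TKO EpiLC replicate 1 and 0 without TKO EpiLC replicate 2 or QKO EpiLC replicate 3. Of 19 ligands 13 never reached the minimum, and depth and low expression were not told apart there.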
